A study of Homo sapiens with 3 samples.

Results

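MTAP, CDKN2A, CDKN2B, SMAD4, TGFBR2 and BRAF, all drivers or co-deleted genes of pancreatic cancer, were read in droplet single-cell RNA libraries of the pancreatic ductal adenocarcinoma line BxPC-3, a human cell line in wide use. These 6 genes were taken by name from the 33694 features of the deposited matrices, whatever their level, and followed in 5640 cells. Of these 6, 4 had 0 unique molecular identifiers (UMIs, which mark single captured RNA molecules) in every library, and TGFBR2 and BRAF were detected in all 3 libraries.

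The study asked how cells that had entered other cells differ. BxPC-3 cells stably expressing EGFP were mixed with the same number of cells stably expressing mCherry, and suspension culture was used to induce cell-in-cell structures, in which one living cell lies inside another. The double-positive (DP) library came from sorted cells with both signals and the single-positive (SP) library from sorted cells with a single signal, EGFP or mCherry. The parental (NC) library served as the reference. Each group had 1 library of 1 cell line, so the differences below carry no check by replicates, no p-value was computed, and all intervals are 95% intervals that cover counting error only. Whether both colours were pooled for the single-positive library is not stated in the labels. Nor do they state whether cells were expanded in culture before or after sorting.

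Cells were barcodes with at least 6500 UMIs, which gave 2409 parental cells, 1291 single-positive cells and 1940 double-positive cells. These held 63782337, 50458262 and 61156461 UMIs, or 97.7% to 98.0% of the UMIs of each library. The median depth was 23290 UMIs per cell in the parental library, 38137 in the single-positive one and 29963.5 in the double-positive one. The median share of mitochondrial UMIs was 0.947%, 1.30% and 2.08%. The double-positive library shared 6 cell barcodes with the parental and 1 with the single-positive library, and the single-positive and parental libraries shared 1. All 9 markers of epithelium were detected, and their summed level ranged over the libraries from 9782 to 10106 CPM, counts per 1000000 UMIs of the cells. Of 32 markers of fibroblasts, endothelium, immune, red blood, acinar, islet and liver cells, 11 had 0 UMIs, and no summed level of these lists passed 5.72 CPM in any library. PTPRC, KDR, INS and ALB were at 0, and the highest of the 32 was CD14 with 752 UMIs.

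The genes belong to pathways that pancreatic carcinomas lose or activate. CDKN2A encodes p16INK4A, which inhibits the kinases CDK4 and CDK6 and so keeps RB1 able to hold back S phase, and, from another start and reading frame, p14ARF, which binds MDM2. CDKN2B encodes p15INK4B, a related inhibitor, and MTAP, their neighbour, encodes the enzyme that returns methylthioadenosine to the methionine pool. TGFBR2 is the ligand-binding receptor of TGF-beta, SMAD4 is the partner that receptor-activated SMADs need for many of their target genes, and BRAF is a kinase that passes growth signals to MEK and ERK. BxPC-3 is known from earlier work to lack CDKN2A and SMAD4 through homozygous deletion and to carry an in-frame deletion in BRAF.

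CDKN2A and SMAD4 gave 0 UMIs, and so did CDKN2B and MTAP. No cell of any library held a UMI of any of the 4 genes. A count of 0 among 175397060 UMIs allows up to 0.0171 CPM for each gene, taken as 3 counts, and 0 of 5640 cells allows a share of cells with a UMI of up to 0.0532%. Within a single library the limit was 0.0470 CPM (parental), 0.0595 CPM (single-positive) or 0.0491 CPM (double-positive). The barcodes outside the cells held none either: the UMIs of each of the 4 genes summed to 0 over all 737280 barcodes of every library. A count of 0 is not rare by itself, since 10440 of 33694 features (31.0%) and 2952 of 19586 protein-coding features (15.1%) had 0 UMIs in the cells.

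**Figure D1:**
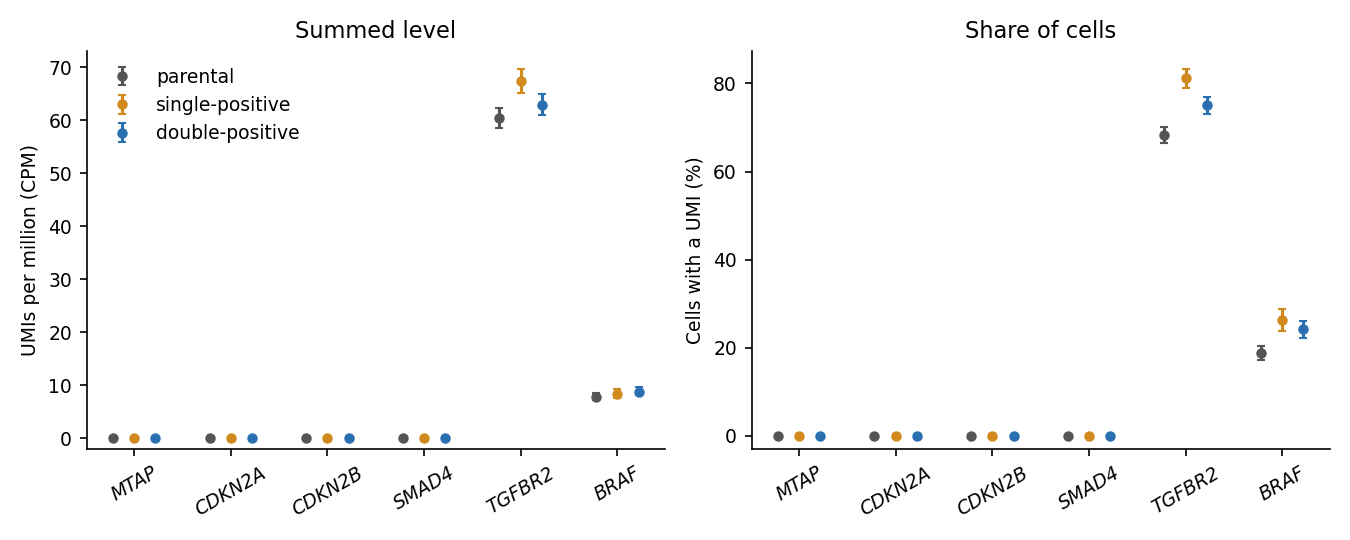
Level in CPM (left axis) and share of cells with at least 1 UMI in percent (right axis) of the 6 genes in parental, single-positive and double-positive cells, 1 library each. Points are library values and bars are exact 95% counting intervals; MTAP, CDKN2A, CDKN2B and SMAD4 sit at 0 in all 3 libraries, while TGFBR2 lies between 60.4 and 67.3 CPM and BRAF between 7.82 and 8.80 CPM.

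On chromosome 9 the absence of UMIs extended past these genes. By GENCODE 29 positions on GRCh38, MTAP (ENSG00000099810) lies at chr9:21802543-21937651 on the plus strand. CDKN2A (ENSG00000147889) lies at chr9:21967753-21995301 and CDKN2B (ENSG00000147883) at chr9:22002903-22009363, both on the minus strand. They fall within an unbroken run of 34 features with 0 UMIs in the cells, of which 23 are protein coding. The run also holds KLHL9, an adaptor of a ubiquitin ligase, the cluster of interferon alpha genes, IFNE, the antisense RNAs CDKN2A-AS1 and CDKN2B-AS1, DMRTA1 and ELAVL2. The last detected feature before the run was IFNB1, the interferon beta gene, with 23 parental, 42 single-positive and 26 double-positive UMIs. The first after it was TUSC1, with 4830 UMIs in all (27.5 CPM), and the gap between IFNB1 and TUSC1 was 4.60 Mb.

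Further out, transcription on this arm was read at ordinary levels. RPS6, a ribosomal protein gene 2.43 Mb from MTAP, stood at 1633, 1661 and 1645 CPM (parental, single-positive, double-positive), and was the nearest feature of at least 5 CPM on that side. Between RPS6 and the run, MLLT3 had 4.42 CPM, FOCAD 3.97 CPM and HACD4 0.165 CPM over all cells. Runs of features at 0 were common, 4739 across the genome with a median length of 1 feature. This run was number 5 by features and number 2 by protein-coding features, level with a run of mainly USP17L genes on chromosome 4. The other runs with many protein-coding features held mainly clusters of olfactory receptor, keratin-associated protein and defensin genes, which are silent in most tissues. Runs that were long by features but held few protein-coding ones are not described. Interferon alpha genes and ELAVL2, a neuronal RNA-binding protein gene, are also silent in most epithelial cells. MTAP and KLHL9 are known to be transcribed in most tissues. Why the features of the run were at 0 was not tested. These runs, and the genes named in and beside them, were chosen after the counts were seen.

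SMAD4 also lay in a run of features at 0, a shorter one that was number 85 by features and number 33 by protein-coding features. SMAD4 (ENSG00000141646) lies at chr18:51028394-51085045 on the plus strand, in a run of 9 features at 0 of which 7 are protein coding. These were MAPK4, MRO, ME2, ELAC1, the readthrough RP11-729L2.2, SMAD4 and MEX3C. ME2 encodes a mitochondrial malic enzyme, ELAC1 a tRNA-processing nuclease and MEX3C an RNA-binding ubiquitin ligase. SKA1, a kinetochore gene 0.653 Mb from SMAD4, was the last detected feature before the run and had 740 parental, 656 single-positive and 784 double-positive UMIs (12.4 CPM over all). On the other side DCC, a netrin receptor gene 1.31 Mb away, had 17 UMIs, and the gap between SKA1 and DCC was 1.95 Mb. The next feature of at least 5 CPM there was MBD2, a reader of methylated DNA, at 46.4 CPM and 3.12 Mb from SMAD4.

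**Figure D2:**
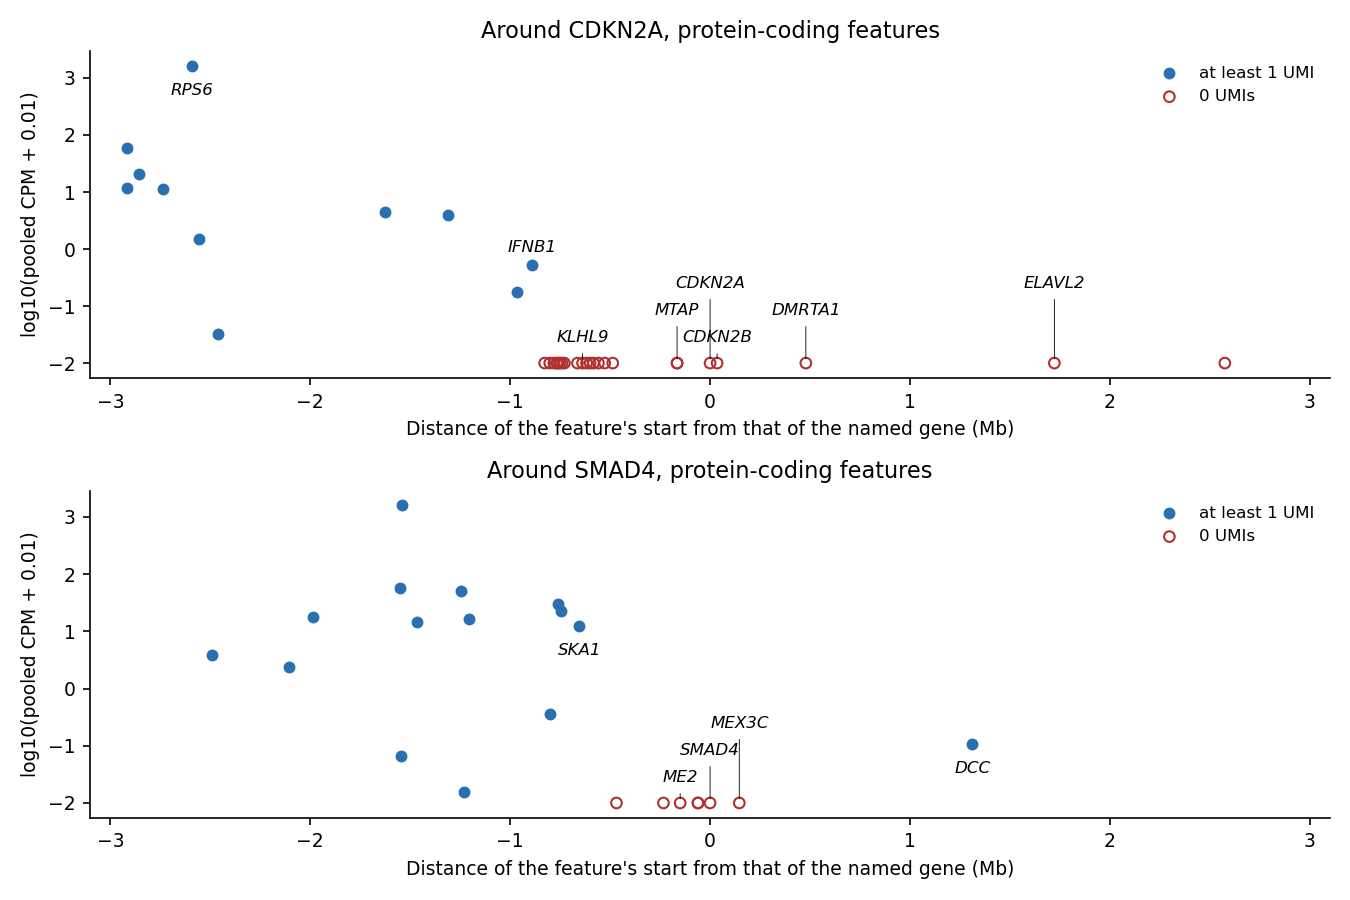
Pooled level of protein-coding features, as log10 of CPM plus 0.01, against the distance in Mb of each feature's start from that of CDKN2A (top) or SMAD4 (bottom); each point is 1 feature summed over the 3 libraries. Open circles are features with 0 UMIs: they form a run around each gene that is broken on the left by IFNB1 and SKA1.

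Counting rules can hide UMIs where genes overlap, because a read that fits more than 1 gene is usually not counted. Exons of CDKN2B and TGFBR2 overlapped no other feature of the matrix. Readthrough transcripts on the same strand covered 3.15% of the exon bases of MTAP and 7.37% of those of SMAD4, and both readthroughs were at 0 as well. The readthrough over MTAP starts at chr9:21802636, close to the start of MTAP. These are shares of all exon bases. The libraries were 5' libraries, and overlap near the starts alone was not computed, so it can be larger there. Features on the opposite strand covered 7.88% of the exon bases of CDKN2A (CDKN2B-AS1), 1.76% of those of MTAP and 5.29% of those of BRAF (NDUFB2). Overlap on the opposite strand can hide UMIs only where a count ignores strand, which was not examined.

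Around the detected genes a smaller share of the protein-coding features was at 0. TGFBR2 had 5 features at 0 among the 37 others within 3 Mb, including 1 of 24 protein-coding ones. For SMAD4 these counts were 18 of 37 and 6 of 21, and for CDKN2A 34 of 49 and 22 of 33. For BRAF they were 84 of 162 and 10 of 66, the window holding many segments of the T-cell receptor beta locus. NDUFB2, a subunit of respiratory complex I that starts 0.0286 Mb from BRAF, stood at 403 CPM over all cells. STT3B, an oligosaccharyltransferase subunit 0.926 Mb from TGFBR2, stood at 30.2 CPM.

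The stretches just upstream of a start of 3 undetected genes are shown beside that of TGFBR2, which was detected. RefSeq (GRCh38.p14) gave windows for all 6 genes, 8 in total. The stretches below run 5' to 3' on the gene's own strand, stop before the RefSeq start and, where GENCODE 29 has an exon of the gene in the window, before that exon. Capitals mark GC boxes, the letters GGGCGG on either strand. CDKN2A and TGFBR2 have 2 RefSeq starts each, 20.467 kb apart for CDKN2A, and the upstream one is given.
CDKN2A, chr9:21995325-21995574, minus strand: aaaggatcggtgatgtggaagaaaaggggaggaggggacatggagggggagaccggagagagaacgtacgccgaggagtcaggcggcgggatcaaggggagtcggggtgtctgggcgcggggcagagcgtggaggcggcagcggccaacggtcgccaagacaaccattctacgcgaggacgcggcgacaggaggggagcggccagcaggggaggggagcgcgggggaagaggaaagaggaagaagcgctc
CDKN2B, chr9:22009364-22009555, minus strand: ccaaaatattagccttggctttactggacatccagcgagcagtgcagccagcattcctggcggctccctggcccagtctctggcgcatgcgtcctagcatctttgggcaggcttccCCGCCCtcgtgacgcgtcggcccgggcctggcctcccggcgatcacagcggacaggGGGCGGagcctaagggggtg
SMAD4, chr18:51029963-51030099, plus strand: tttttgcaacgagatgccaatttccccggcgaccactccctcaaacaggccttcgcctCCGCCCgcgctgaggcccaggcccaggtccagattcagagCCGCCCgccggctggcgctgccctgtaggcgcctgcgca
TGFBR2, chr3:30606106-30606355, plus strand: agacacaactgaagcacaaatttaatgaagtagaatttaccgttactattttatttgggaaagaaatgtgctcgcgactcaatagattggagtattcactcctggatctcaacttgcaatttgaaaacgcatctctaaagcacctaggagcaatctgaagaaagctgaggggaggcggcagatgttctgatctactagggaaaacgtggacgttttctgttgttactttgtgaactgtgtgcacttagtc

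The stretches of CDKN2B and SMAD4 each held 2 GC boxes, and those of CDKN2A and TGFBR2 held 0. The 250 bases before the other start held 1 GC box for CDKN2A and 2 for TGFBR2. A GC box was found in 42.6% of 35116 RefSeq windows of 250 bases before a start. The 250 bases held 24 CG dinucleotides for this start of CDKN2A and 25 for SMAD4, and for TGFBR2 they held 7 at this start and 12 at the other, beside a median of 11 over all windows. Both CDKN2A starts and those of MTAP, CDKN2B and SMAD4 lie between the detected features that bound the runs. The matrices count UMIs per gene, so p16INK4A and p14ARF RNA could not be told apart, and each falls under the same 0.

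TGFBR2 (ENSG00000163513, chr3:30606502-30694142, plus strand) was read in most cells. It had 3851 parental, 3395 single-positive and 3848 double-positive UMIs. Its level was 60.4 CPM (58.5 to 62.3) in the parental library, 67.3 CPM (65.0 to 69.6) in the single-positive library and 62.9 CPM (60.9 to 64.9) in the double-positive library. The single-positive library was highest and its interval lay apart from the other two, whose intervals overlapped. The share of cells with a TGFBR2 UMI was 68.3% (66.4% to 70.1%), 81.2% (78.9% to 83.3%) and 75.1% (73.1% to 77.0%), in the order of the depth per cell. With every cell thinned to 6500 UMIs the shares were 31.8% (29.98% to 33.7%), 35.9% (33.3% to 38.6%) and 32.5% (30.4% to 34.7%), so that neighbouring intervals overlapped. Single cells held up to 17, 25 and 17 UMIs.

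BRAF (ENSG00000157764, chr7:140719327-140924928, minus strand) was sparse. It had 499 parental, 422 single-positive and 538 double-positive UMIs, or 7.82 CPM (7.15 to 8.54), 8.36 CPM (7.58 to 9.20) and 8.80 CPM (8.07 to 9.57). All 3 intervals overlapped, so no order of the libraries can be read from them. A BRAF UMI was found in 18.7%, 26.2% and 24.1% of cells, and after thinning in 5.60% (4.72% to 6.60%), 5.42% (4.25% to 6.80%) and 6.24% (5.20% to 7.41%). No cell held more than 4. UMIs counted per gene do not show the BRAF allele, so its in-frame deletion was not examined.

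Both genes were also present in the barcodes taken as near-empty, those with 1 to 100 UMIs, which hold free RNA. TGFBR2 stood there at 79.2, 98.3 and 92.8 CPM (parental, single-positive, double-positive), and BRAF at 9.39, 8.19 and 12.6 CPM from 7, 7 and 11 UMIs. The libraries hold no cell type that should lack these genes, so no share from such a type can be set beside theirs. MTAP, CDKN2A, CDKN2B and SMAD4 were at 0 in these barcodes.

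None of the differences between groups reached 1.5-fold, the size counted here as a call. For TGFBR2 the log2 ratio of CPM was -0.097 (-0.16 to -0.030) for double-positive over single-positive, 0.16 (0.089 to 0.22) for single-positive over parental and 0.060 (-0.0053 to 0.12) for double-positive over parental cells. For BRAF it was 0.073 (-0.11 to 0.26), 0.096 (-0.094 to 0.29) and 0.17 (-0.0092 to 0.35), each interval including 0. Every library enters 2 of these comparisons, so the ratios are not independent of each other.

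Calls were rare in all of the data. Among 7687 features with a mean of at least 10 CPM, 0.234% were at least 1.5-fold higher and 0.325% at least 1.5-fold lower in double-positive than in single-positive cells. In single-positive over parental cells the shares were 0.234% higher and 0.169% lower, and in double-positive over parental cells 0.234% and 0.286%. The median log2 ratio of these features was -0.023, 0.049 and 0.026 in the 3 comparisons. TGFBR2 was among the 7687 features and was not called, and BRAF lay under the 10 CPM floor.

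**Figure D3:**
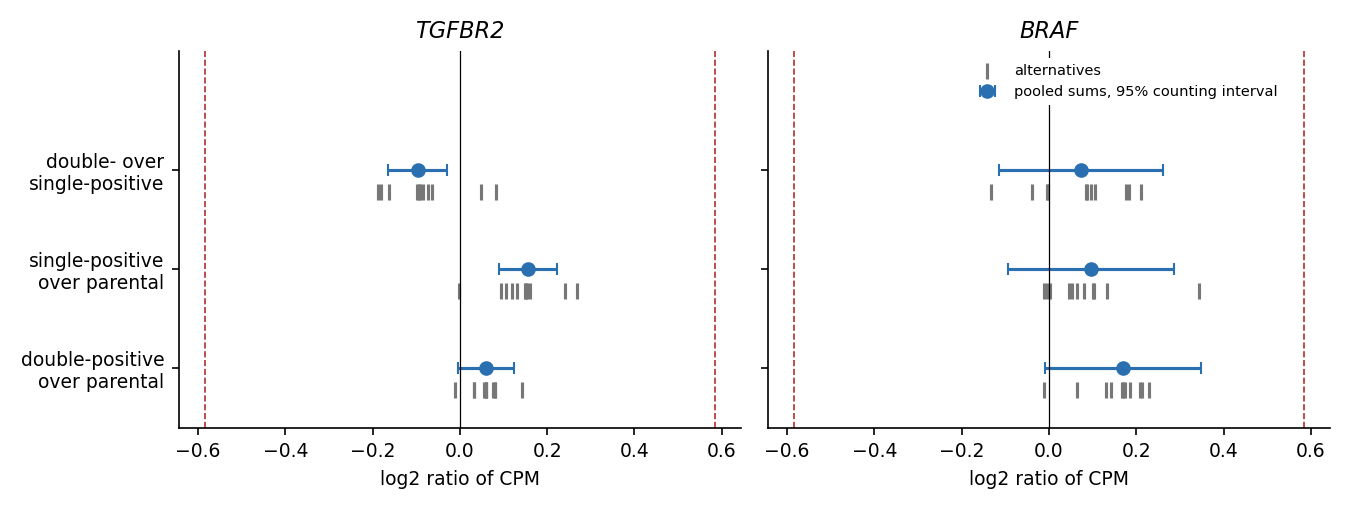
Log2 ratio of CPM (horizontal axis) of TGFBR2 and BRAF in the 3 comparisons; points are ratios of the pooled sums with 95% counting intervals, grey ticks are the same ratio under each alternative, and dashed lines mark 1.5-fold. No value reaches a dashed line, and the ticks of both genes spread across 0 in some comparisons.

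Within the single-positive library the TGFBR2 level was highest in the shallow cells. In the lowest quartile of single-positive cells by depth, with a median of 11810 UMIs, TGFBR2 stood at 95.6 CPM (86.3 to 105.5), and in the other 3 quartiles at 62.0 to 66.4 CPM. In the deepest quartiles the single-positive level was 65.0 CPM (61.7 to 68.5) at a median of 64234 UMIs. The parental one was 58.6 CPM (55.8 to 61.6) at a median of 42696 UMIs, so those intervals lay just apart, at unlike depth. BRAF had 16.1 CPM (12.4 to 20.5) in the lowest single-positive quartile and 7.29 to 8.09 CPM in the others. In the parental library TGFBR2 ranged from 58.6 to 63.8 CPM over the quartiles and in the double-positive library from 61.3 to 67.9 CPM. A shared UMI range, 22974 to 32998, was taken where the interquartile ranges of depth of all libraries overlap. It leaves out the lowest single-positive quartile. In this range TGFBR2 stood at 60.03 CPM in 628 parental cells, 59.99 CPM in 142 single-positive cells and 63.5 CPM in 701 double-positive cells. The log2 ratio of single-positive over parental cells there was -0.00094, with no interval computed. Among all cells of at least 10000 UMIs it was 0.15. What part depth has in the difference was not tested.

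Many of the shallow single-positive cells fell into 1 group. All cells, scaled to their own depth, were grouped by their RNA into 9 clusters, which were given no names. Cluster 6 had 222 cells, 211 of them single-positive, with a median of 11293 UMIs and MT-ND6, HIST1H2AB and RMRP among its leading genes. It took 207 of the 323 single-positive cells in the lowest quartile of depth. In its single-positive cells TGFBR2 stood at 100.2 CPM (88.3 to 113.2) and BRAF at 20.0 CPM (14.9 to 26.2). In the other 116 cells of that quartile TGFBR2 stood at 86.1 CPM (73.0 to 100.9) and BRAF at 10.8 CPM (6.48 to 16.8). Without cluster 6, chosen after seeing the data, the single-positive levels were 65.5 CPM for TGFBR2 and 7.74 CPM for BRAF, and the log2 ratio over parental cells went from 0.16 to 0.12 for TGFBR2 and from 0.096 to -0.011 for BRAF. A cluster drawn almost wholly from 1 library can be that library's own property, which cannot be told apart from a cell state here.

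Over the clusters of each library TGFBR2 ranged from 38.2 to 100.2 CPM, against 60.4 to 67.3 CPM over whole libraries. It was low in cluster 4, led by the cornified-envelope gene SPRR2E and by S100A7, with 42.5, 40.9 and 50.8 CPM (parental, single-positive, double-positive). It was also low in cluster 8, led by IFNL1 and IFIT2, an interferon and an interferon-induced gene, with 38.2 CPM in parental and 45.5 CPM in double-positive cells. It was high in cluster 7, led by the stress gene DDIT3 and by EGR2, with 83.7 and 88.1 CPM. In the remaining clusters apart from 6 it lay between 54.6 and 76.8 CPM. BRAF reached 13.9 CPM (10.2 to 18.3) in parental and 11.6 CPM (7.56 to 17.0) in double-positive cells of cluster 7, on 49 and 26 UMIs. These levels come from cells grouped by their RNA and are a description.

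**Figure D4:**
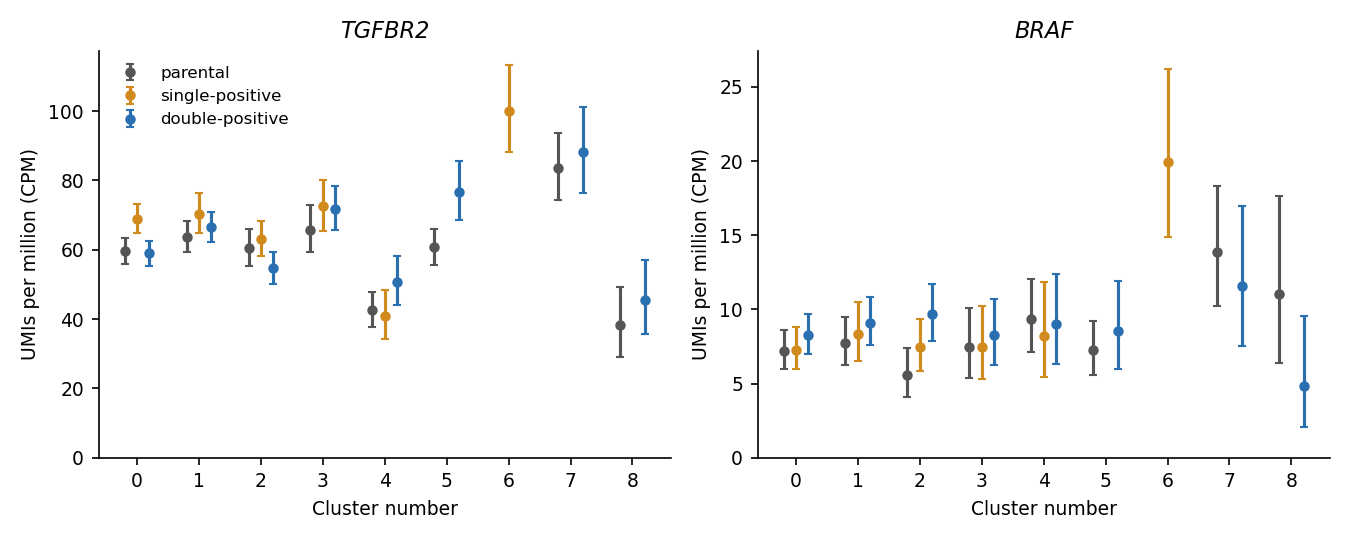
Level in CPM of TGFBR2 (left) and BRAF (right) by cluster number and library, for clusters with at least 50 cells in that library; bars are exact 95% counting intervals. TGFBR2 is lowest in clusters 4 and 8 and highest in clusters 6 and 7, and the single point of cluster 6 is single-positive.

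Levels in the cell-cycle phases lay close together, except for TGFBR2 in the double-positive library. By marker scores on thinned cells, G1 took 45.3% of parental cells, 37.1% of single-positive cells and 43.0% of double-positive cells. TGFBR2 stood at 61.2 CPM in G1, 58.2 in S and 60.2 in G2/M among parental cells, and at 65.4, 65.7 and 69.4 CPM among single-positive cells. Among double-positive cells it was 67.6 CPM (64.4 to 71.0) in G1, 54.8 CPM (50.2 to 59.6) in S and 61.7 CPM (58.8 to 64.7) in G2/M, so the G1 and S intervals lay apart in that library. Among cells assigned to G1, TGFBR2 stood at 67.6 CPM in double-positive and 65.4 CPM (61.8 to 69.2) in single-positive cells. Their intervals overlapped, so no order can be read from them, while over all cells the single-positive interval lay above. BRAF lay between 6.72 and 9.19 CPM over the 9 combinations of phase and library. The shares of phases rest on scores that free RNA can also reach, and this was not tested.

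TGFBR2 and BRAF were compared cell by cell only after thinning. A TGFBR2 UMI was present in 34.8% of parental cells with a BRAF UMI and in 31.7% of those without. The shares were 47.1% and 35.3% in single-positive and 31.4% and 32.6% in double-positive cells. Cells with both numbered 47, 33 and 38, too few to read a relation from.

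Features averaging at least 10 CPM were ranked by nearness of level to TGFBR2 over 22 combinations of cluster and library. The nearest were IL6ST, a cytokine receptor subunit, PDGFA, a growth factor, and SEPHS2, a selenophosphate synthetase. Their mean absolute log2 difference from TGFBR2 was 0.14, 0.17 and 0.18. For BRAF the nearest were RNF185, PDZD2 and RAD9A, at 0.29, 0.31 and 0.32. Levels were not centred, so the ranking favours genes of like mean level: 65.9, 58.7 and 65.6 CPM beside 63.5 for TGFBR2. BRAF, at 8.33 CPM, lay under the 10 CPM floor, and its nearest features had 10.03, 10.7 and 10.2 CPM. The points share libraries and differ in depth, so the likeness is a description.

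The rest of each pathway was read from a list, of which genes averaging 5 CPM or more over the libraries entered. Levels follow in the order parental, single-positive, double-positive, and medians of log2 ratios in the order double-positive over single-positive, single-positive over parental, double-positive over parental. In each list the 2 lowest and 2 highest log2 ratios of double-positive over single-positive cells are named, except for 1 gene of the TGF-beta targets, and the genes with a direct tie to a driver were picked besides, with their values known. In none of the 9 pathway lists was a gene of at least 5 CPM 1.5-fold apart in any comparison, beside 0.253% to 0.453% of the 9501 features of at least 5 CPM in each direction.

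The partners of p16INK4A and p15INK4B were all detected. Of 16 listed genes of the INK4, cyclin D, CDK and RB group 14 entered, with medians of -0.035, 0.13 and 0.084. CDK4 and CDK6, the kinases that p16INK4A inhibits, had 289.7, 287.9 and 286.3 CPM and 144.9, 160.9 and 168.0 CPM. RB1, the tumor suppressor that these kinases phosphorylate, had 20.01, 24.7 and 22.9 CPM. CDKN2D, the p19INK4D member of the inhibitor family, had 12.2, 12.3 and 12.1 CPM. The lowest ratios were those of E2F1, a driver of S-phase genes (-0.40, -0.54 to -0.27), and the D-type cyclin CCND3 (-0.35, -0.43 to -0.26). The highest were those of E2F3 (0.089, -0.044 to 0.22) and CDKN1A, the p21 inhibitor (0.21, 0.18 to 0.23).

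The ARF list held MDM2, MDM4, the p14ARF partners NPM1 and HUWE1, and genes that answer to the factor MDM2 degrades. It lay farther from the median of all features than the other pathway lists in both comparisons with the single-positive library. All 10 listed genes entered. In single-positive over parental cells 8 of 10 ratios were below 0, with a median of -0.24 beside 0.056 for all features of at least 5 CPM, of which 64.0% were above 0. In double-positive over single-positive cells 8 of 10 were above 0, with a median of 0.22 beside -0.026 and 42.8%, and in double-positive over parental cells the median was -0.051. MDM2, the ubiquitin ligase that p14ARF binds, had 43.3, 39.5 and 46.1 CPM. The highest ratios of double-positive over single-positive cells were those of GDF15, a stress-induced cytokine with 236.1, 162.9 and 201.6 CPM, and SESN1, a stress-induced sestrin with 11.1, 8.62 and 10.5 CPM. The lowest were those of NPM1, a nucleolar protein that binds p14ARF (-0.11, -0.12 to -0.098), and HUWE1, a ubiquitin ligase that p14ARF inhibits (-0.066, -0.15 to 0.019). NPM1 and HUWE1 were also the only genes of the list above 0 in single-positive over parental cells (0.076 and 0.21). The single-positive library enters both comparisons and is the low one for MDM2, GDF15 and SESN1. CDKN1A stands in 3 of the lists and GDF15 in 2.

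Around MTAP, the enzymes of methionine salvage and polyamine synthesis were present. Of 16 listed genes 15 entered, with medians of -0.046, 0.029 and 0.019. SRM, spermidine synthase, which releases the methylthioadenosine that MTAP cleaves, had 287.7, 287.5 and 219.7 CPM and the lowest ratio (-0.39, -0.42 to -0.35). PRMT5, the arginine methyltransferase that methylthioadenosine inhibits, was next (-0.19, -0.25 to -0.13) with 80.6, 93.9 and 82.3 CPM. The highest ratios were those of AMD1, which supplies the aminopropyl donor (0.28, 0.20 to 0.36), and MAT2B (0.097, 0.038 to 0.16). MAT2A, which makes S-adenosylmethionine, had 89.2, 105.0 and 105.1 CPM.

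Other ligands and receptors of the TGFBR2 pathway were detected. Of 17 listed genes 12 entered, with medians of -0.050, 0.083 and 0.051. TGFBR1, the kinase receptor that pairs with TGFBR2, had 12.4, 14.5 and 13.3 CPM. The lowest ratios were those of the ligand TGFB1, with 85.9, 96.4 and 77.5 CPM (-0.32, -0.37 to -0.26), and the activin subunit INHBA, with 85.7, 92.2 and 77.6 CPM (-0.25, -0.31 to -0.19). The highest were those of TGFB2, with 6.005, 6.16 and 7.72 CPM (0.32, 0.11 to 0.54), and GDF15, given above.

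The other SMADs and their regulators were read in all libraries. Of 15 listed genes 12 entered and 0 were at 0 UMIs, with medians of 0.010, 0.077 and 0.070. SMAD2 and SMAD3, which the TGF-beta receptor activates and which bind SMAD4, had 39.4, 42.9 and 43.3 CPM and 103.3, 102.1 and 105.8 CPM. SMAD7, the inhibitory member, had 2.48, 2.52 and 2.13 CPM. The highest ratios were those of TGIF1, a repressor that binds SMADs (0.26, 0.20 to 0.31), and SMAD3 (0.051, -0.0020 to 0.10), and the lowest those of TRIM33, a ubiquitin ligase that binds SMADs (-0.12, -0.23 to -0.0066), and the corepressor SKI (-0.064, -0.18 to 0.051).

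Genes known to answer to TGF-beta were read although SMAD4 was at 0. Of 16 listed genes 13 entered, with medians of 0.040, 0.066 and 0.11. PMEPA1, a feedback inhibitor of the pathway, had 72.6, 91.8 and 71.4 CPM and the lowest ratio (-0.36, -0.42 to -0.30). The highest were those of CDKN1A, given above, and ITGB6, an integrin that activates TGF-beta (0.15, -0.0019 to 0.31). ID1, a target of the BMP branch, had 167.6, 221.9 and 228.5 CPM, and its log2 ratio of double-positive over parental cells was 0.45 (0.41 to 0.48). Many of these genes also answer to other signals.

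The kinases around BRAF were detected too. Of 18 listed genes of the RAS, RAF, MEK and ERK group 17 entered, with medians of -0.068, 0.080 and 0.037. ARAF, a paralog of BRAF, had 24.0, 23.4 and 24.8 CPM. The lowest ratios were those of MAPK3, the ERK1 kinase (-0.34, -0.52 to -0.15), and MAP2K2, the MEK2 kinase that RAF proteins phosphorylate, with 116.0, 106.7 and 85.5 CPM (-0.32, -0.37 to -0.26). The highest were those of NRAS (0.10, 0.016 to 0.19) and NF1, an inhibitor of RAS (0.096, -0.0057 to 0.20).

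Of 17 listed genes that ERK signalling induces 15 entered, with medians of -0.086, 0.16 and 0.088. In single-positive over parental cells 12 of 15 ratios were above 0, as were 64.0% of all features of at least 5 CPM, 12 of 13 of the TGF-beta targets, 14 of 17 of the RAS, RAF, MEK and ERK group and 17 of 20 of the further drivers below. EGR1, an early response factor, had 147.9, 196.7 and 163.7 CPM (-0.27, -0.31 to -0.23 for double-positive over single-positive), and ETV5, an ETS factor, had the lowest ratio (-0.30, -0.45 to -0.15). The highest were those of SPRY2, a feedback inhibitor (0.26, 0.11 to 0.41), and CCND1, the cyclin that pairs with CDK4 (0.033, 0.0031 to 0.063). DUSP6, a phosphatase that restrains ERK, had 84.1, 96.5 and 89.8 CPM.

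All 20 further genes known to be mutated in pancreatic carcinoma had at least 5 CPM, with medians of -0.022, 0.14 and 0.098. The lowest ratios were those of RBM10, a splicing regulator (-0.22, -0.32 to -0.11), and ACVR1B, an activin receptor (-0.20, -0.36 to -0.041). The highest were those of RNF43, an inhibitor of WNT receptors (0.14, -0.056 to 0.34), and KMT2C, a histone methyltransferase (0.096, -0.026 to 0.22). GNAS, a G protein subunit, had 367.3, 277.2 and 279.7 CPM. Among the 6 genes and these 20, those at 0 were MTAP, CDKN2A, CDKN2B and SMAD4.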

How the data were processed

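Droplet 5' libraries of 3 groups, 1 library each, were deposited as matrices of raw UMI counts, genes by barcodes, not filtered for cells and written by Cell Ranger per the file headers. Versions are Cell Ranger 4.0.0 and Seurat 4.0.6, with build GRCh38, per the submitters' processing notes; the annotation release was not given in those notes. Features were placed by identifier with GENCODE 29 (33132 of 33694 matched).

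Counts were summed over barcodes of at least 6500 UMIs and scaled to CPM. The deposited counts total 51637677 to 65107147 per library over all barcodes, of which the cells hold 50458262 to 63782337. No doublet was removed. Levels have exact Poisson, shares Clopper-Pearson and log2 ratios conditional binomial 95% intervals. With 1 library per group no test was run: a feature was called at 1.5-fold with a mean of at least 10 CPM. Each cell was thinned to 6500 UMIs for phases; Leiden clusters used counts scaled to each cell's depth, not thinned (2000 variable features, 30 components, resolution 0.5). The 6 genes are described in full, with the nearest neighbours of at least 5 CPM. The 3 features nearest in level over clusters are named, and from each list the 2 highest and 2 lowest ratios. The other listed genes enter counts and medians only, and some of them are not reported here by name. Members and lists were chosen with earlier results of these data known. Ratios were tested on simulated data. Alternatives changed the cell call, scaling, depth, phase, ambient RNA and floor. Python 3.11.15, numpy 2.4.6, scipy 1.17.1, scikit-learn 1.9.0 and leidenalg 0.10.2 were used.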

Additional observations from a re-analysis of the deposited data

Results flagged for a closer look

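TGFBR2 and BRAF had UMIs in barcodes that no comparison used. In barcodes of 1 to 100 UMIs TGFBR2 had 59 UMIs in the parental, 84 in the single-positive and 81 in the double-positive library, and BRAF had 7, 7 and 11. In barcodes of 101 to 6499 UMIs TGFBR2 had 35, 17 and 41 UMIs, and BRAF had 10, 2 and 12. Each but the 2 BRAF UMIs of the single-positive library lies above the 3 counts that a count of 0 allows. MTAP, CDKN2A, CDKN2B and SMAD4 had 0 UMIs in both classes of barcodes in every library. With 1 library per group, no library could be set against others of its group.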

How the results depend on the processing

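No paired analysis was possible because each group had 1 library. MTAP, CDKN2A, CDKN2B and SMAD4 had 0 UMIs over all barcodes, so their 5 alternatives could give no value but 0 and say nothing about stability. The 6 ratios of TGFBR2 and BRAF were recomputed under 11 alternatives, 1 of them (without cluster 6) chosen after seeing the data. Median-of-ratios scaling moved every ratio alike, by 0.023, -0.049 and -0.026 in the order of comparisons used for the lists, which turns the median of the methionine salvage list below 0 in both comparisons with the parental library and that of the further drivers above 0 in the first comparison. Of 66 values 54 lay within the counting interval, none reached 1.5-fold, and the largest was 0.34 on the log2 scale. The cause was not tested for the other 12. For TGFBR2, double-positive over single-positive cells, the log2 ratio was -0.18 as a mean of per-cell CPM, -0.19 after thinning to 6500 UMIs, 0.082 in the shared UMI range and 0.049 in G1 cells. For TGFBR2, single-positive over parental cells, it was 0.24, 0.27 and -0.00094 under the first 3 of these. For TGFBR2, double-positive over parental cells, it was 0.14 in G1 cells and -0.011 without droplets under 0.5% mitochondrial UMIs. For BRAF it was -0.13 (double-positive over single-positive) and 0.34 (single-positive over parental) as a mean of per-cell CPM, and -0.011 (double-positive over parental) in the shared UMI range.

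The number of features at least 1.5-fold apart moved with the floor, which also sets how many features enter. The cause was not tested. For double-positive over single-positive cells 18 (0.234%) were higher and 25 (0.325%) lower of 7687 features at a floor of 10 CPM. At 5 CPM these were 29 (0.305%) and 43 (0.453%) of 9501 features. At 20 CPM they were 16 (0.291%) and 13 (0.237%) of 5494. With at least 1 UMI in each library they were 1360 (7.29%) and 1826 (9.79%) of 18651. For single-positive over parental cells 18 and 13 became 32 and 24, 8 and 6, and 1734 and 1383. For double-positive over parental cells 18 and 22 became 25 and 39, 17 and 11, and 1509 and 1535. Depth limits BRAF: with 422 to 538 UMIs a library, its ratios have counting intervals that include 0.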

Other observations

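CCND2, a D-type cyclin that lies below the 5 CPM floor of the lists and was chosen after its values were seen, differed more between libraries than any listed gene above that floor. It had 117 parental, 139 single-positive and 54 double-positive UMIs, or 1.83, 2.75 and 0.883 CPM. Its log2 ratio was -1.64 (-2.12 to -1.18) for double-positive over single-positive cells and -1.05 (-1.55 to -0.58) for double-positive over parental cells. Of 18651 features with at least 1 UMI in each library, 9.79% and 8.23% were at least 1.5-fold lower in these comparisons. CD79A, a listed immune marker also below the floor, lay farther apart. It had 39 parental and 6 double-positive UMIs and a log2 ratio of -2.64 (-4.17 to -1.39) for double-positive over parental cells. IFNB1, the interferon gene at the edge of the run of features at 0 on chromosome 9, had 0.361, 0.832 and 0.425 CPM (parental, single-positive, double-positive).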
